A study of Sebastes mystinus with 44 samples.

Results

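The late risers are 150 assembled transcript features of white muscle from juvenile blue rockfish (Sebastes mystinus). Averaged over the 4 exposures of the study, they stood at similar levels at 12 h and 24 h. In every exposure they were higher at 2 weeks than at 12 h. They are 150 of the 239549 features in the deposited tables. Each count was divided by its library total and multiplied by 1000000, which gives CPM, and log2(CPM + 1) was averaged within each exposure and time. Of all features, 8371 had a mean of 5 to 500 CPM over the fish, and 7371 of these also differed by less than 0.5 log2 between 24 h and 12 h on average over the 4 exposures. These 7371 are called eligible features here. The score of a feature was the smallest of its 4 differences between 2 weeks and 12 h, and the 150 highest scores were taken. The differences between times therefore chose the members. They are given as a description with no test, and "rise" is used here only as the name of the difference between 2 weeks and 12 h.

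The 44 libraries came from 44 fish in 12 groups of 1 exposure and 1 time. Control fish lived in untreated flowing seawater, pH fish in seawater acidified with carbon dioxide, and DO fish in seawater whose oxygen was lowered with nitrogen. The exposure named cross is not defined in the labels; knowledge of the study has it as the lowered pH and the lowered oxygen together. Each group held 4 fish, but pH at 2 weeks had 2 fish, and both pH and DO had 3 fish at 24 h. All fish were juveniles held in flow-through aquaria, and time is time in the exposure. The sources used here do not tell which aquarium or library set a fish belonged to, so some fish of a group may have shared a tank. Cross fish are named Mys7064 to Mys7079 while the names of the rest run from Mys13 to Mys60, so any difference in origin or handling cannot be told apart from the cross exposure. Fish of every exposure were older at 2 weeks than at 12 h, so age, growth and time in the aquaria cannot be told apart from time in an exposure.

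White muscle makes up most of the trunk of a bony fish and powers short bursts of swimming, largely through glycolysis. Growing juveniles add and enlarge its fibres and remodel the transcript pool of the muscle as they do so. Carbon dioxide dissolved in seawater enters the blood and acidifies it until bicarbonate is retained, and low oxygen limits aerobic metabolism. Responses of fish muscle to both can differ between the first hours and a later, acclimated state, which is the question that sampling at 3 times addresses. The features here carry Trinity identifiers of a de novo assembly and the tables pair none of them with a gene name. No role is therefore given to any member, the muscle label could not be checked against marker genes, and no sequence is shown.

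Library totals ran from 9885000 to 36693000 counts, so 3 counts corresponded to 0.0818 to 0.303 CPM. This floor covers counting error only. Of the 6600 values of the members, 1 was 0 and 3 were at or below 3 counts, so the members were well above the floor in nearly every fish. The 100 most abundant features took between 42.1% and 64.9% of a library. That share is a library property which moves the CPM of all other features, and the values below are therefore also given after TMM scaling, which estimates a factor per library from the features that differ least. The TMM factor lay outside 0.75 to 1.5 in 4 libraries and between 0.758 and 1.32 in all others. They were DO fish Mys35 at 24 h (1.84, with the lowest share, 42.1%), cross fish Mys7068 at 24 h (1.63), pH fish Mys30 at 24 h (0.695) and pH fish Mys53 at 2 weeks (0.584, with the highest share, 64.9%). Values of their groups are also given without each of them, with the members as chosen from all fish, a choice made after the data were seen.

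The median level of the members was 7.32 CPM at 12 h and 7.91 CPM at 24 h, and 19 CPM at 2 weeks. Over the eligible features the same medians were 12.9, 13.9 and 12.8 CPM. At 12 h the mean level of a member lay between 1.64 and 115 CPM, with 1 member under 2 CPM, 39 from 2 to 5 CPM, 51 from 5 to 10 CPM, 57 from 10 to 50 CPM and 2 above 50 CPM. At 2 weeks the lowest member stood at 7.41 CPM and the highest at 280 CPM. In RNA of whole tissue, more cells of a type and more RNA per cell cannot be told apart. These values are not per length, so they describe how many reads stood behind the members and give no order of abundance among them.

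Together the 150 members summed to 1690 ± 538 CPM (SD, n = 16) at 12 h, with the lowest fish at 747 and the highest at 2700 CPM. At 24 h they summed to 1598 ± 663 CPM (n = 14), from 738 to 3147 CPM. At 2 weeks the sum was 4130 ± 992 CPM (n = 14), from 2541 to 6202 CPM. The sums of the lowest fish at 2 weeks thus overlapped those of the highest earlier fish. Without DO fish Mys35 the sum at 24 h was 1479 ± 511 CPM (n = 13), up to 2715 CPM in cross fish Mys7068, and without pH fish Mys53 the sum at 2 weeks was 4247 ± 926 CPM (n = 13), still from 2541 CPM. After TMM scaling they did not overlap, with 986 to 2277 CPM at 12 h, 1061 to 1731 CPM at 24 h and 2546 to 5124 CPM at 2 weeks. By exposure, the 2-week sum was 5044 ± 793 CPM in control, 3783 ± 1670 CPM in pH (n = 2), 3883 ± 998 CPM in DO and 3636 ± 336 CPM in cross. After TMM scaling these sums were 4334 ± 594, 4755 ± 419, 3971 ± 726 and 3499 ± 637 CPM. Control stood highest on the plain scale and pH after TMM scaling, so the order of the exposures depended on the scaling.

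**Figure D1:**
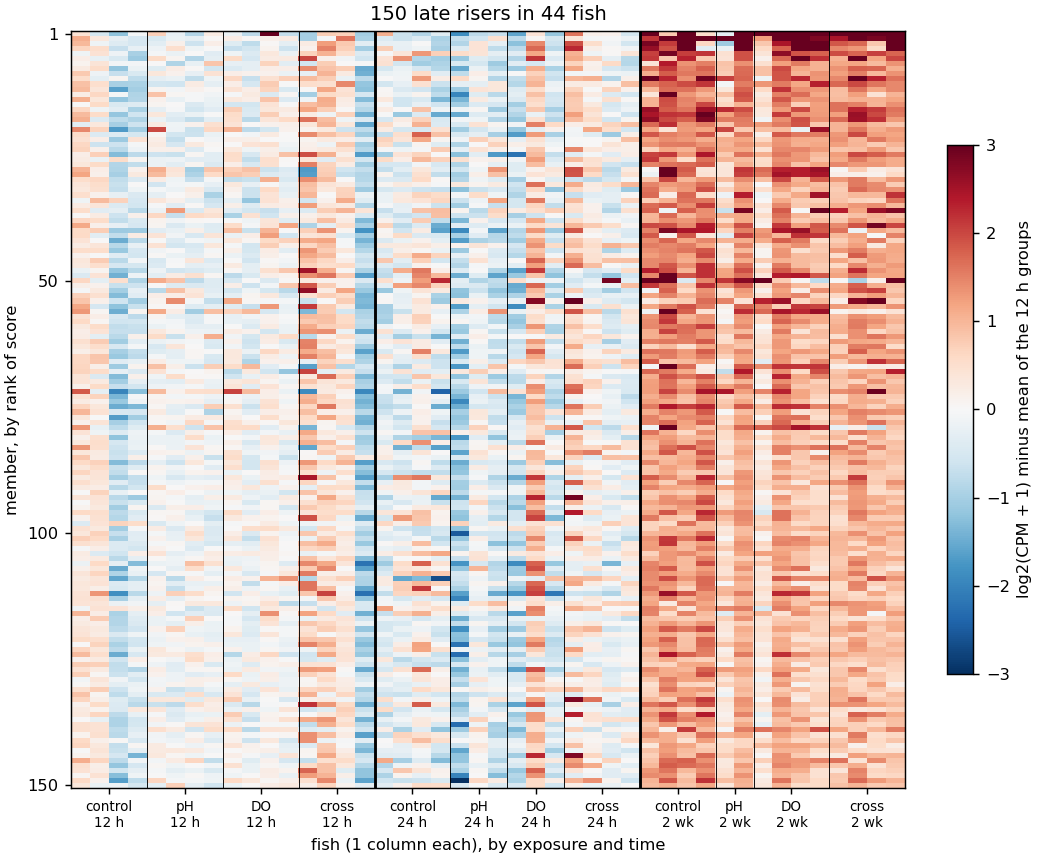
Heat map of the 150 members (rows, by rank of score) in the 44 fish (columns, grouped by exposure and time), coloured by log2(CPM + 1) minus the mean of the 4 groups at 12 h. The 14 columns at 2 weeks are mostly red, while single columns at 12 h and 24 h are red or blue over nearly all members.

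Scores ran from 3.01 for the member of rank 1 and 2.83 for rank 2 down to 1.51 for rank 3, 1.06 for rank 10, 0.77 for rank 50 and 0.70 for rank 75. The member of rank 150, just inside, had a score of 0.5388, and the first feature outside had 0.5386. The module thus has no gap at its lower edge. The first 2 members stand well above the rest. The median score was 0.70, against -0.41 over the eligible features. In 13 members, ranks 1 to 13, the rise was at least 1, a doubling of CPM + 1, in all 4 exposures. Their mean levels were 2.05 to 55.0 CPM at 12 h, 2.50 to 47.9 CPM at 24 h and 11.8 to 280 CPM at 2 weeks.

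The highest score belonged to TRINITY_DN55112_c3_g1. At 12 h it stood at 12.2, 5.72, 3.19 and 8.26 CPM in control fish and at 14.9, 7.15, 4.33 and 10.5 CPM in pH fish. At 12 h it read 7.64, 4.62, 131 and 4.91 CPM in DO fish and 3.88, 15.1, 14.8 and 3.81 CPM in cross. A single earlier fish, DO fish Mys23 with 131 CPM, was thus far above its group. At 24 h the values were 19.3, 5.21, 4.33 and 6.55 CPM in control, 1.7, 4.59 and 4.96 CPM in pH, 2.31, 11.8 and 3.42 CPM in DO, and 28.3, 9.78, 9.60 and 5.72 CPM in cross. At 2 weeks they were 517, 15.6, 547 and 13 CPM in control and 6.89 and 728 CPM in pH fish. DO fish at 2 weeks had 115, 297, 532 and 362 CPM and cross fish 104, 180, 121 and 386 CPM. The 2-week fish therefore fell into an upper set of 11 with 104 to 728 CPM and a lower set of 3 with 6.89 to 15.6 CPM. Those 3 (control fish Mys50 and Mys52 and pH fish Mys53) lay in the range of the earlier fish other than DO fish Mys23. With Mys23 counted, 8 of the 14 fish at 2 weeks exceeded every fish at 12 h. Every DO and cross fish at 2 weeks was in the upper set. The rises were 3.56 in control, 3.01 in pH, 4.36 in DO and 4.30 in cross. The pH value rested on pH fish Mys54: without it the difference was -0.26, and without pH fish Mys53 it was 6.27.

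TRINITY_DN48181_c5_g3, with the second score, was more even between fish. At 12 h it stood at 7.95, 4.25, 2.55 and 2.01 CPM in control, 2.08, 2.73, 2.51 and 3.32 CPM in pH, 3.95, 3.35, 3.76 and 4.04 CPM in DO, and 1.12, 3.15, 11.8 and 1.18 CPM in cross. At 24 h the values were 2.16, 1.71, 2.13 and 1.21 CPM in control, 1.59, 1.86 and 4.92 CPM in pH, 1.47, 3.44 and 1.96 CPM in DO, and 4.47, 3.09, 3.13 and 2.78 CPM in cross. At 2 weeks it reached 17.7, 92.2, 56.4 and 58.4 CPM in control, 48.6 and 46.9 CPM in pH, 8.97, 88.9, 49.4 and 28.3 CPM in DO, and 22.4, 36.8, 29.3 and 37.7 CPM in cross. Each of the 14 fish at 2 weeks but DO fish Mys57 (8.97 CPM) exceeded every earlier fish, the highest of which was cross fish Mys7066 at 12 h with 11.8 CPM. The rises were 3.38 in control, 3.75 in pH, 2.83 in DO and 3.01 in cross.

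**Figure D2:**
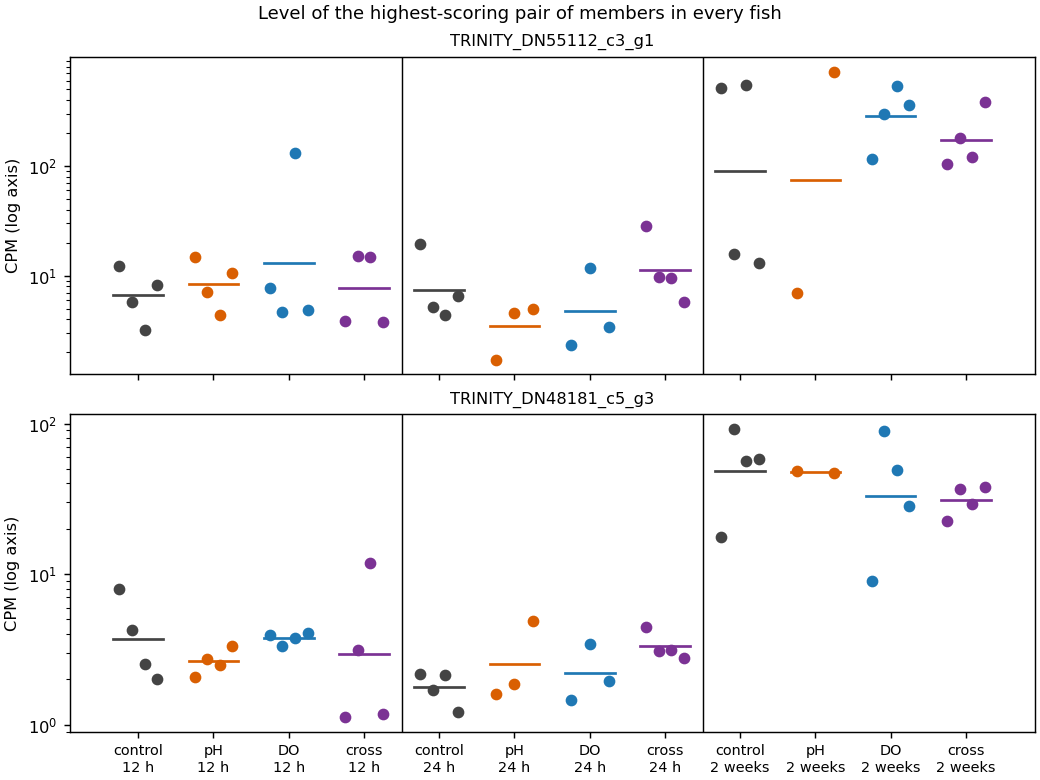
CPM (log axis) of the members of rank 1 (top) and rank 2 (bottom) in every fish, by exposure and time; points are fish and horizontal lines the group mean of log2(CPM + 1) turned back into CPM. At 2 weeks the first splits into 11 fish at 104 to 728 CPM and 3 at 6.89 to 15.6 CPM, while the second lies at 8.97 to 92.2 CPM.

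The member of rank 75 was in the middle of the list by score only. Its mean over all fish was 61.6 CPM, against a median of 11.5 CPM over members. Its control rise was 2.53 and its range of rise over exposures 1.83, against members' medians of 1.46 and 0.82. At 12 h it stood at 54.9, 44.0, 11.8 and 13.1 CPM in control, 36.5, 28.7, 25.3 and 58.1 CPM in pH, 49, 21.9, 49.9 and 36.2 CPM in DO, and 53.9, 106, 46.2 and 13.8 CPM in cross. At 2 weeks it stood at 104, 187, 149 and 170 CPM in control, 65.8 and 126 CPM in pH, 70.7, 168, 158 and 98.7 CPM in DO, and 92.2, 69.7, 55.6 and 75.4 CPM in cross. The groups did not overlap in control, pH and DO, and overlapped in cross because of cross fish Mys7065 at 12 h with 106 CPM. At 24 h its control, pH and DO fish lay between 11.8 and 62.3 CPM and its cross fish between 26.9 and 107 CPM.

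The member of rank 150 had the lowest score, with 5.48 to 10.7 CPM at 12 h and 15.7 to 19.5 CPM at 2 weeks in control fish. In DO fish, which set its score, it stood at 7.07, 8.63, 9.90 and 10.5 CPM at 12 h and 10.8, 18.3, 12.7 and 12.9 CPM at 2 weeks. The DO groups did not overlap, but the highest fish at 12 h came close to the lowest at 2 weeks. The first feature outside the module stood at 3.23 to 7.99 CPM at 12 h and 12.6 to 14.5 CPM at 2 weeks in control fish, and at 3.88 to 8.95 CPM against 7.37 and 10.4 CPM in pH fish.

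Members differed in how alike their exposures were. The range of the rise over the 4 exposures had a median of 0.82 and ran from 0.17 to 2.38, and its median over the eligible features was 0.83. These ranges are of plain rises. The smallest range belonged to rank 126, whose rises were 0.76 in control, 0.69 in pH, 0.62 in DO and 0.59 in cross. After TMM scaling the rises of rank 126 were 0.55, 1.01, 0.44 and 0.59, so they were less alike on that scale. At 12 h its 16 fish stood at 7.08 to 21.6 CPM, and at 2 weeks at 21.2, 20.2, 29 and 30 CPM in control, 12.9 and 25.3 CPM in pH, 13.8, 27.8, 15.2 and 22.6 CPM in DO, and 19.8, 18.4, 25.1 and 21.5 CPM in cross. The largest range and the largest spread between fish of a group both belonged to rank 50, with rises of 3.15, 2.26, 1.77 and 0.77. At 2 weeks this member stood at 153, 112, 0.816 and 5.69 CPM in control, 9.88 and 15.4 CPM in pH, 179, 3.12, 1.53 and 0.433 CPM in DO, and 1.51, 0.275, 1.71 and 36.5 CPM in cross. Its place in the module therefore rests on a few fish with high values, and 6 of its 8 DO and cross fish were at or under 3.12 CPM. The smallest spread was that of rank 104, with control fish at 5.24, 2.97, 2.47 and 4.99 CPM at 12 h and 7.51, 11.9, 13.1 and 10.5 CPM at 2 weeks. Its control fish at 24 h, at 5.18, 6.41, 9.03 and 10.8 CPM, overlapped those at 2 weeks. The control difference of 24 h from 12 h was 0.85, beside a rise of 1.275. In pH, DO and cross that difference was 0.11, 0.10 and 0.37, beside rises of 0.64, 0.78 and 0.91.

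The rise differed between exposures in size. Its median over members was 1.46 in control, 0.93 in pH, 0.88 in DO and 0.86 in cross, while over the eligible features it was 0.22, -0.29, 0.17 and -0.11. Scaling moved these background medians: after TMM scaling the eligible features had medians of 0.01, 0.00, -0.01 and -0.11, and the members 1.26, 1.25, 0.71 and 0.85. The members' median rise, turned from log2 into a ratio of CPM + 1, was also divided by that of the eligible features of the same exposure. The quotient was 2.37 in control, 2.34 in pH, 1.64 in DO and 1.96 in cross. After TMM scaling it was 2.38, 2.37, 1.65 and 1.95. It compares changes from 12 h, not levels at 2 weeks. Adding 1 to CPM shrinks such ratios more at low levels, and members stood lower at 12 h (median 7.32 CPM) than eligible features (12.9 CPM). A scaling factor shifts all features of a library alike, so values relative to the eligible features differ little between scalings by construction. The difference between exposures in the size of the rise was not tested, since the score was taken from these values. The median rise in pH was 0.56 without pH fish Mys54 and 1.29 without pH fish Mys53, and that in cross was 0.52 when fish Mys7067 was left out and 1.06 when fish Mys7064 was. In control and DO, leaving out single fish gave 1.26 to 1.67 and 0.73 to 1.05.

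All 150 members had a rise above 0 in all 4 exposures after TMM scaling, against 22.2% of eligible features. In control, pH, DO and cross taken singly, 50.5%, 50.1%, 48.6% and 40.4% of eligible features did so. Every member had a plain rise of at least 0.5388 in each exposure by the choice, so nothing is read from this. The exposure with the smallest rise, which set the score, was cross for 60 members, DO for 46, pH for 42 and control for 2. Among eligible features, that exposure was cross for 25.8%, DO for 9.09%, pH for 59.9% and control for 5.22%. After TMM scaling the smallest rise of the members was in DO for 94, cross for 40, control for 9 and pH for 7. On the plain scale the largest rise was in control for 111 of 150 members, against 42.4% of eligible features. After TMM scaling it was in pH for 68 members and in control for 57. These TMM-scaled shares were not counted over eligible features. Ranking by TMM-scaled CPM kept 97 of the 150 members. The other 53 were chosen by the plain scale alone, and the 97 had median rises of 1.5, 0.96, 0.94 and 0.90 in control, pH, DO and cross fish.

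**Figure D3:**
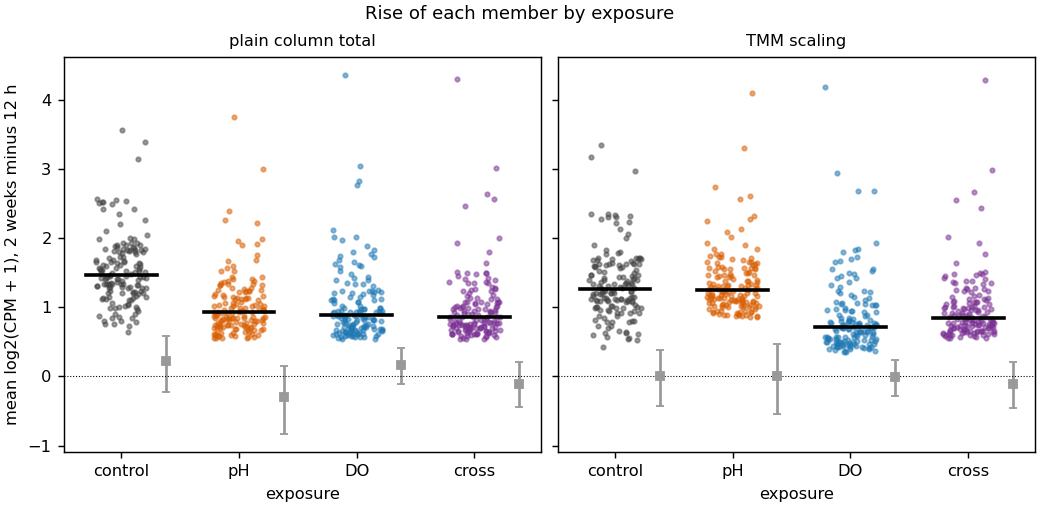
Difference in mean log2(CPM + 1) between 2 weeks and 12 h for each of the 150 members (points) by exposure, with plain totals (left) and TMM scaling (right); black lines are member medians and grey squares with bars the median and quartiles of the 7371 eligible features. The pH median of the members moves from 0.93 to 1.25 and that of the eligible features from -0.29 to 0.00, as a scaling factor shifts both.

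Between 12 h and 24 h the members were flat by construction on average, but not in each exposure. The median difference of 24 h from 12 h was -0.01 in control, -0.37 in pH, -0.09 in DO and 0.06 in cross, against 0.16, -0.14, 0.29 and -0.07 over the eligible features. After TMM scaling the members' medians were -0.10, -0.25, -0.44 and -0.03, against 0.04, -0.01, -0.06 and -0.17 over the eligible features. Without DO fish Mys35 the plain DO medians were -0.52 for members and 0.01 for eligible features. Without cross fish Mys7068 the cross medians were -0.13 and -0.11, and without pH fish Mys30 the pH medians were -0.20 and 0.01. The members' median in cross thus changed sign, and the one in DO moved furthest from 0. In pH, 23 of 150 members (15.3%) were higher at 24 h than at 12 h, against 34.1% of eligible features, and 56 members (37.3%) were lower by 0.5 or more, against 14.7%. Without pH fish Mys30, 24 members (16%) were lower by that much, against 6.34%. In DO 15 members (10%, against 2.25%) were lower by 0.5 or more, and without DO fish Mys35 there were 78 (52%, against 8.49%). A difference of 0.5 or more upwards occurred in 20 members (13.3%) in control, against 17.7% of eligible features, in 1 (0.667%) in pH against 2.97%, in 6 (4.0%) in DO against 26.3% and in 22 (14.7%) in cross against 7.54%. The members' share was below that of the eligible features in control, pH and DO and above it in cross. The mean at 2 weeks exceeded that at 24 h in all 4 exposures for 145 of 150 members (96.7%), against 23% of eligible features. The other 5 members (ranks 28, 29, 56, 67 and 79) were higher at 24 h than at 2 weeks in cross, where their difference of 24 h from 12 h was 0.91 to 1.18. For these 5 the description "higher only at 2 weeks" did not hold in cross. Averaged over the exposures, every member was higher at 2 weeks than at 24 h by construction. Its rise was at least 0.5388 in each exposure, and its mean difference of 24 h from 12 h stayed under 0.5. Nothing is therefore read from the 96.7%.

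Within an exposure, many members had every fish at 2 weeks above every fish at 12 h. This held for 113 members (75.3%) in control, where 17.8% of eligible features did so. It held for 107 (71.3%) in pH against 9.42%, for 74 (49.3%) in DO against 10.2% and for 44 (29.3%) in cross against 3.41%. The rule used this contrast, so nothing is read from these shares. Every fish at 2 weeks lay above every fish at 24 h for 106 members in control (17.2% of eligible features), 118 in pH (12.9%), 39 in DO (3.01%) and 82 in cross (6.76%). The limits of the rule favour this order too, so nothing is read from these counts either. The pH groups at 2 weeks hold 2 fish and separate more readily than groups of 4. After TMM scaling the counts for 12 h were 111, 138, 69 and 50 (background 14.7%, 22.8%, 5.26% and 3.89%), and for 24 h they were 104, 139, 97 and 89 (14.9%, 25.6%, 12.8% and 8.76%). The DO count for 24 h moved most, from 39 to 97. On the plain scale it was 133 without DO fish Mys35 (26% of eligible features), the cross count was 109 without cross fish Mys7068 (11.7%) and the pH count was 120 without pH fish Mys30 (13.3%). Without pH fish Mys53, a single pH fish is left at 2 weeks, and it lay above every pH fish at 12 h in 148 members (30.7%) and above every one at 24 h in 150 (32.3%).

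Across exposures the fish overlapped more. On the plain scale 1 member had all 14 fish at 2 weeks above all 16 fish at 12 h (0.0136% of eligible features), 5 had them above all 14 fish at 24 h (0.109%), and 0 had them above all 30 earlier fish (0%). After TMM scaling these counts were 7 (0.163%), 39 (1.48%) and 4 (0.0543%). Members were chosen by differences between these times, so nothing is read from the counts. The 4 were ranks 9, 58, 103 and 120. Rank 9 had TMM-scaled levels of 6.23 to 26.1 CPM at 12 h, 8.44 to 18.4 CPM at 24 h and 28.7 to 55.0 CPM at 2 weeks. Rank 120 had 3.35 to 6.56, 1.81 to 5.71 and 6.71 to 9.75 CPM. In the median member, 5 of the 14 fish at 2 weeks lay above all 30 earlier fish on the plain scale.

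A few fish set most of the overlap. DO fish Mys57 was the lowest of the 14 fish at 2 weeks in 75 members and pH fish Mys53 in 42. Cross fish Mys7064 at 12 h was the highest of the 30 earlier fish in 34 members, DO fish Mys35 at 24 h and cross fish Mys7068 at 24 h in 33 each, and cross fish Mys7065 at 12 h in 17. After TMM scaling pH fish Mys53 and DO fish Mys35 left these lists, each being extreme in fewer than 5 members. DO fish Mys57 was then lowest in 42 and cross fish Mys7076 in 48, and cross fish Mys7064 and Mys7065 were highest in 35 and 21.

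The median of the members in each fish, as a log2 difference from the mean of the 12 h groups, gives each fish a single value. At 12 h, 24 h and 2 weeks, control fish had -0.10 ± 0.58, -0.12 ± 0.24 and 1.37 ± 0.15 (SD, n = 4 each). In the same order, the value in pH fish was -0.06 ± 0.07 (n = 4), -0.47 ± 0.44 (n = 3) and 0.89 ± 0.48 (n = 2). In DO fish it was 0.00 ± 0.20 (n = 4), -0.06 ± 0.77 (n = 3) and 0.91 ± 0.38 (n = 4). In cross fish it was 0.16 ± 0.73, 0.11 ± 0.32 and 1.05 ± 0.17 (n = 4 each). On the plain scale the spread between fish at 12 h in control and cross and at 24 h in DO was thus several times that at 2 weeks in control and cross. After TMM scaling the SD in control, pH, DO and cross was 0.40, 0.11, 0.15 and 0.47 at 12 h and 0.16, 0.17, 0.18 and 0.11 at 24 h, so the wide spread in DO at 24 h was not present on that scale. Without DO fish Mys35 the plain value in DO at 24 h was -0.50 ± 0.14 (n = 2), without cross fish Mys7068 that in cross was -0.03 ± 0.20 (n = 3), and without pH fish Mys30 that in pH was -0.24 ± 0.29 (n = 2). The low values at 12 h were those of cross fish Mys7067 (-0.90) and control fish Mys15 (-0.75), and the high ones those of cross fish Mys7064 (0.61) and Mys7065 (0.67). At 24 h pH fish Mys30 stood at -0.91 and DO fish Mys35 at 0.81. Cross fish Mys7067, control fish Mys15 and pH fish Mys30 had shares of the 100 most abundant features of 62.0%, 63.0% and 64.5%. Their medians over the eligible features were -0.30, -0.31 and -0.39. DO fish Mys21, Mys23 and Mys24 at 12 h had like shares of 63.4%, 62.5% and 61.9% and member medians of 0.13, 0.19 and -0.06. The eligible medians of these DO fish were -0.28, -0.20 and -0.22. After TMM scaling DO fish Mys35 stood at -0.06 and cross fish Mys7067 at -0.65, and the part of library composition in these values was not tested. pH fish Mys53 stood at 0.56 at 2 weeks on the plain scale, with an eligible median of -0.60, and at 1.24 after TMM scaling. The 2-week group values were then 1.11 ± 0.12 in control, 1.22 ± 0.03 in pH, 0.91 ± 0.27 in DO and 0.93 ± 0.26 in cross.

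**Figure D4:**
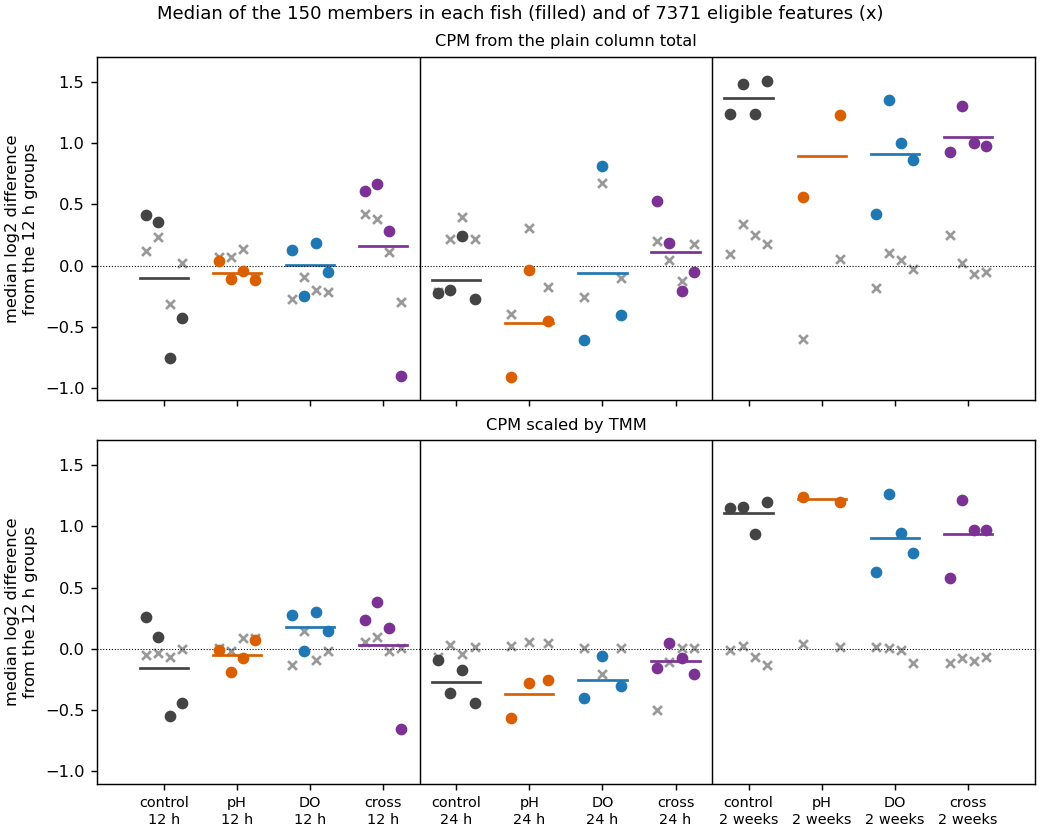
Median over the 150 members of the log2 difference from the 12 h groups in each fish (filled points, coloured by exposure; lines are group means) and median of the eligible features (grey crosses), with plain totals (top) and TMM scaling (bottom). Plain values at 2 weeks run from 0.42 to 1.51 and overlap single fish at 12 h and 24 h, such as DO fish Mys35 at 0.81, which falls to -0.06 after TMM scaling.

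The choice of members used every fish, so each fish was also read with members chosen again without it. The 14 fish at 2 weeks then had member medians of 0.37 to 1.47 (median 1.05), the 16 fish at 12 h -0.78 to 0.96 and the 14 fish at 24 h -0.91 to 0.81. Over the eligible features of the same choices, the medians ran from -0.60 to 0.33 at 2 weeks. They ran from -0.33 to 0.43 at 12 h and from -0.40 to 0.69 at 24 h. In a fish at 2 weeks left out in this way, 121 to 150 of the 150 members lay above the mean of the 12 h groups (median 148), against 2 to 137 in fish at 12 h and 11 to 137 in fish at 24 h. The share of eligible features above that mean was not counted. After TMM scaling the members' medians were 0.56 to 1.23 at 2 weeks, -0.53 to 0.56 at 12 h and -0.57 to 0.04 at 24 h. On the plain scale single fish at 12 h and 24 h overlapped the range at 2 weeks. After TMM scaling no fish at 24 h did. At 12 h cross fish Mys7064 did, with 0.565 against 0.560 in the lowest fish at 2 weeks, cross fish Mys7076. The 12 h fish that set the reference, and the other fish at 2 weeks, still took part in the choice, so these values are a description as well. Between 93 and 148 of the 150 members were kept when a fish was left out, with 93 kept without cross fish Mys7067 at 12 h and 93 without pH fish Mys54 at 2 weeks.

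**Figure D5:**
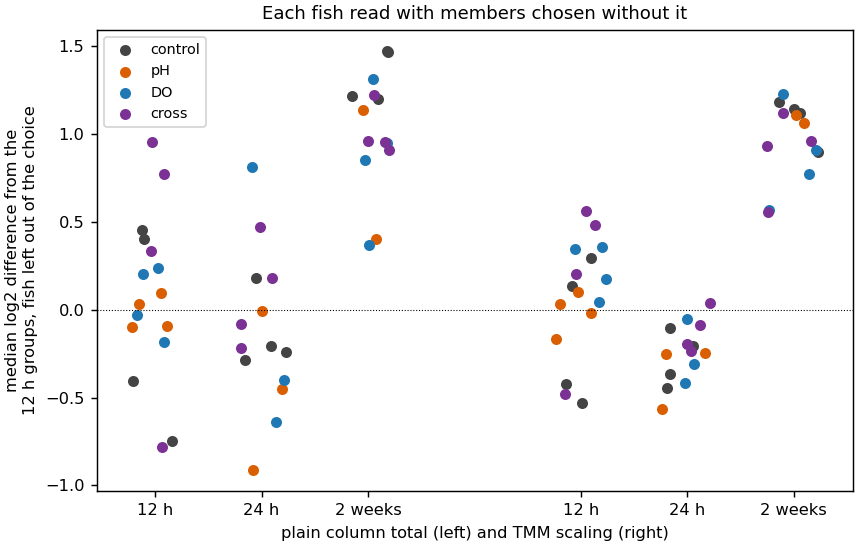
Median log2 difference from the 12 h groups in each fish, over 150 members chosen again without that fish, by time and exposure (colours), with plain totals (left) and TMM scaling (right). The fish at 2 weeks lie at 0.37 to 1.47 on the plain scale and at 0.56 to 1.23 after TMM scaling, and those at 12 h at -0.78 to 0.96 and -0.53 to 0.56.

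Within groups the members varied more between fish than eligible features did. The SD within groups of log2(CPM + 1) had a median of 0.58 over members and 0.43 over eligible features, and after TMM scaling 0.48 and 0.37. By time, the members' median reached 0.60 at 12 h and 0.64 at 24 h and stood at 0.42 at 2 weeks, and the eligible features' was 0.40, 0.50 and 0.34. Members also deviated from their group means together. Over the 44 fish the median Pearson correlation of a pair of members was 0.51, against 0.31 for a pair of eligible features, and 96.0% and 82.6% of pairs lay above 0. With TMM scaling the medians were 0.26 and 0.05. The fish share library and depth with all their features and enter the means of the rule, so these spreads and correlations are a description. Members also stood lower at 12 h, with a median of 7.32 CPM against 12.9 CPM over eligible features. The part of the choice and of the level in the wider spread was not tested.

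Identifiers show how the members lie in the assembly. The 150 members carry 146 distinct Trinity DN numbers. A cluster is here the set of features with the same DN and c numbers. In all, 8 members form 4 pairs that share a cluster (ranks 32 and 84, 40 and 75, 81 and 109, and 18 and 57). Their deviations from the group means correlated at 0.62, 0.87, 0.59 and 0.69. Whether reads were divided between near-identical assembled copies was not tested. For 61 members, an eligible feature of the same DN number was not a member. A cluster held a median of 5 features for members and for eligible features, and 10 members (6.67%) were alone in theirs, against 13.5% of eligible features. The share of values that were not whole numbers, a mark of reads divided between features, had a median of 31.8% over members and 75% over eligible features. In the pair of ranks 40 and 75, the expected counts of rank 75 in control fish at 12 h were the whole numbers 669, 745, 148 and 170.

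Exposure was compared with control within each time by edgeR's quasi-likelihood test over all features, with Benjamini-Hochberg adjustment (24701 features at 12 h, 26357 at 24 h and 26595 at 2 weeks). The 3 comparisons of a time share their control fish. All 150 members were tested in each, and none of them passed an adjusted p of 0.05 in any of the 9 comparisons. Over all features 0% were called in each comparison at 12 h and 24 h, and at 2 weeks 0.124% were called for pH, 0.00376% for DO and 0% for cross. For cross at 24 h DESeq2 called 3 members (2.0%, against 2.05% of all features) and limma voom 8 (5.33% against 3.78%). For pH at 2 weeks DESeq2 called 1 member (0.667% against 2.84%). Without control fish Mys25 edgeR called 12 members for cross at 24 h (8.0% against 3.9%), 11 of them higher than in control. Over all features 1015 were called there, 294 higher and 721 lower. The rule used the levels of the same fish at 12 h and 2 weeks for the score and at 12 h and 24 h for the limit. The comparisons at all times are therefore not independent of the choice of members.

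At 12 h the members had a median log2 fold change of 0.02 for pH, 0.33 for DO and 0.25 for cross, with 81, 132 and 107 of 150 members above 0, while the medians over all features were -0.01, 0.00 and 0.03. With a fish of the compared groups left out, the members above 0 numbered 65 to 118, 119 to 142 and 91 to 125. The share of all features above 0 was not counted at any time. Members deviated from their group means together, so such counts do not stand for separate observations. The members at an unadjusted p under 0.05 numbered 1 for pH (0.667%, against 2.13% of all features), 9 for DO (6.0% against 6.62%) and 11 for cross (7.33% against 4.98%). The smallest adjusted p of a member in edgeR's test for pH was 1, that for DO 0.664 and that for cross 0.923. At 24 h the medians were -0.12 for pH, 0.07 for DO and 0.25 for cross, with 60, 85 and 98 members above 0, and over all features -0.10, -0.07 and 0.00. With a fish left out, the members above 0 numbered 53 to 79, 65 to 102 and 91 to 108. At an unadjusted p under 0.05 there were 12 members for pH (8.0% against 8.35%), 5 for DO (3.33% against 6.48%) and 27 for cross (18% against 16%). The share was near its background for pH and cross and below it for DO. Of the 27 members for cross, 23 were higher in cross, and the smallest adjusted p of a member in edgeR's test was 0.199. Directions over all features at the unadjusted p were not counted.

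At 2 weeks the medians were 0.10 for pH, -0.16 for DO and -0.20 for cross, with 96, 47 and 33 members above 0, and over all features -0.07, 0.01 and 0.01. With a fish of the compared groups left out, the members above 0 numbered 80 to 99, 34 to 62 and 25 to 56. At an unadjusted p under 0.05 there were 9 members for pH (6.0% against 12.4%), 17 for DO (11.3% against 7.97%) and 15 for cross (10.0% against 4.41%). Of these, 15 for DO and 14 for cross were lower than in control, and the directions over all features were not counted. The member with the smallest adjusted p for pH was rank 117, with a log2 fold change of 0.84 ± 0.22 (SE) and an adjusted p of 0.0967 in edgeR's test. For cross it was rank 75, with -0.91 ± 0.22 and an adjusted p of 0.989. Its cluster partner, rank 40, had -1.24 ± 0.33. For DO it was rank 62, with -0.64 ± 0.19 and an adjusted p of 0.585. In these tests no member differed between an exposure and control beyond the spread between fish at the threshold used, which does not show that the levels were alike.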

How the data were processed

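The deposited tables, 1 per time, hold expected counts (estimated reads per feature) of 239549 Trinity features, not normalized, and 9.6% of values are not whole. The submitters' processing notes list Bowtie, edgeR, Trimmomatic 0.36, RSEM 1.3.0 and FastQC 0.11.5 without saying what each did, and the sources used here do not give the assembly settings. Stranded mRNA libraries were made in 2 randomized sets, per the labels' protocols. The 3 tables were joined on the identifier and unrounded expected counts gave CPM with a pseudocount of 1. Members and alternatives were chosen with earlier results of these data known. For the tests, counts were rounded and edgeR 4.0.16 (R 4.3.3) fitted all 4 groups of a time with TMM scaling, filterByExpr (minimum count 10, total 15) and a robust quasi-likelihood F test, two-sided, with a threshold of 0.05. The edgeR fit and the rule were tested on simulated data, and no result is drawn from that here. The simulation of the rule used a single spread, the same rise in every exposure and no shift of library composition. It therefore does not measure how stable the list is in these fish. Alternatives were RLE factors, no filter, a minimum count of 30, voom with quality weights (limma 3.58.1), DESeq2 1.42.0, a fit of the compared pair of groups alone, and leaving out each fish. Values without libraries of extreme TMM factor were added after the data were seen. Between the 61 pairs of fish of a group, chi-square per feature was 18.8 to 160, so no library was a copy of another within a group. P-values treat fish as independent samples, and whether fish of a group shared an aquarium is not known. Features shown by name are the 2 highest scores. Other members shown singly are ranks 75 and 150, the first feature outside, and those with the highest level, smallest and largest range of rise and smallest and largest spread. Members of the test paragraphs with the smallest adjusted p, and other ranks listed beside a count, were chosen after their values were seen.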

Additional observations from a re-analysis of the deposited data

Results flagged for a closer look

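Of 72 group values tested for a single distant sample (8 quantities in 9 groups of 4 fish), 3 had a fish whose gap to the nearest other fish took up an unusually large part of the group's range. Chance gives about 1 in 20, and 3 of 72 is no more than that. Some of the quantities were picked by their score or spread in these fish, so that rate is only a guide. Control fish Mys27 at 24 h had a member median of 0.24, against -0.28 to -0.20 in the other 3 fish. After TMM scaling it stood at -0.18, within the -0.44 to -0.09 of the others. DO fish Mys23 at 12 h had 131 CPM of TRINITY_DN55112_c3_g1, against 4.62 to 7.64 CPM. Cross fish Mys7070 at 24 h had 17 CPM of the member of rank 50, against 0.619 to 1.03 CPM.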

How the results depend on the processing

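The rule fixes the direction of the members' median rise, so its sign under other settings says nothing of stability. The list itself moved: 97 of 150 members were kept with TMM, 97 with RLE scaling, 65 with no CPM window, 30 with a window of 20 to 500 CPM, 91 with a 24 h limit of 0.25 and 83 with the score taken against 24 h. Other settings kept 101 to 132, and single fish left out 93 to 148. The narrower window and limit remove features by construction; otherwise the cause was not tested. Median rises with a fish left out ran from 1.26 to 1.67 in control, 0.56 to 1.29 in pH, 0.73 to 1.05 in DO and 0.52 to 1.06 in cross. The pH rise of the member of rank 1 was -0.26 without pH fish Mys54 and 6.27 without Mys53. That of rank 2 was 4.09 with TMM, 4.06 with a pseudocount of 0.25 and 2.96 with 4. Members called, of 150, were 0 in each comparison as reported. With no low-count filter 1 was called for DO at 12 h (154 of 124974 over all features) and 2 for cross at 12 h (83 of 124974). At 24 h 9 were called for cross (1084 of 125098). At 2 weeks it was 1 for DO (189 of 112243) and 3 for cross (70 of 112243). DESeq2 called 3 for cross at 24 h (540 of 26357) and 1 for pH at 2 weeks (755 of 26595). With voom 8 were called for cross at 24 h (995 of 26357). Members called with a fish left out ran from 0 to 12 for cross at 24 h (1015 of 26005 over all features at the highest) and stayed at 0 elsewhere. Over all features, pH at 2 weeks gave 33 calls as reported, 560 with no filter, 755 with DESeq2, 3 with voom, 1 with only the groups compared and 0 to 931 with a fish left out (931 without pH fish Mys54). Cross at 24 h gave 0 as reported, 1084, 540 and 995 with no filter, DESeq2 and voom, and 1015 without control fish Mys25. With no filter the other comparisons gave 30 to 189 calls. Depth left 3 of 6600 member values at or below 3 counts. No paired analysis was possible because fish numbers differ between all groups.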
